A study of Mus musculus with 18 samples.

Results

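The genes described here are 35 mouse genes of protein folding in the endoplasmic reticulum (ER) and of the unfolded protein response, taken as a fixed list of symbols. All 35 were found among the 23474 gene identifiers of the deposited table, through the GENCODE M21 annotation, and each was followed over all 18 libraries. The list holds 15 chaperones and folding enzymes, of which 11 are chaperones or their partners and 4 are disulfide isomerases. It also holds 7 genes of ER-associated degradation and translocation, 6 sensors and transcription factors or their feedback regulators, and 7 targets of the transcription factor ATF4. Messenger RNA had been sequenced from epididymal white adipose tissue (eWAT, the fat pad beside the epididymis) and liver. In each tissue there were 3 libraries of high-fat diet-prone mice (HP), 3 of high-fat diet-resistant mice (HR) and 3 of mice on a normal diet (ND). All mice were individually housed C57BL/6J males, spelled C56BL/6J in the strain field, collected at 17 weeks of age after 12 weeks on their diets from the age of 5 weeks. The labels describe a random allocation, and by what measure mice were called prone or resistant is not stated in them. Whether libraries are single mice or pools is not stated either, so a p-value here reflects variation among libraries, which may be technical.

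Secretory and membrane proteins fold in the ER with the help of chaperones, of which the Hsp70 protein BiP (Hspa5) is the most studied, and of disulfide isomerases that form and rearrange cysteine bonds. When unfolded protein builds up, the membrane sensors IRE1 (Ern1), ATF6 and PERK (Eif2ak3) are released. IRE1 splices Xbp1 mRNA, and spliced XBP1 and cleaved ATF6 raise the transcription of chaperones and degradation factors. PERK phosphorylates eIF2 alpha, which slows translation in general and favours translation of ATF4. ATF4 drives genes of amino acid synthesis and stress, and it is also reached by other eIF2 alpha kinases, so the ATF4 branch is not a readout of the ER alone. Liver and fat both secrete proteins in quantity.

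Promoter sequence differed between the chaperones and the ATF4 branch. The genes were listed for their known roles and the motifs are known elements of the same pathways. The shares below therefore describe the list and are not independent evidence for these roles. RefSeq promoters on GRCm38.p6, running from 250 bases before to 50 bases after a gene's start, were found for 31 of the 35 genes (not for Manf, Hyou1, Derl1 and Atf6). Both strands were searched for the ER stress element ERSE, which is CCAAT and CCACG with a spacer of 9 bases of any kind between them, and its variant ERSE-II, which is ATTGG and CCACG with 1 base of any kind between them. The C/EBP-ATF response element CARE, spelled TGATGNAA, and the unfolded protein response element UPRE, spelled TGACGTGG, were searched for in the same way. ERSE was present in 7 of the 13 chaperones and folding enzymes with a window (53.8%), in 2 of 6 degradation and translocation genes and in 0 of 7 genes of the ATF4 branch, against 0.137% of the 27025 genes with a window (37 genes). ERSE-II was present in Dnajb11 and Herpud1 alone among the members and in 0.0444% of all genes. CARE was present in 3 of the 7 ATF4-branch genes, in Herpud1 and in 0 of the 13 chaperones and folding enzymes, against 4.51% of all genes. UPRE was in 0 of the 31 genes and in 0.714% of all genes. A match says that these letters occur in the window and not that a factor binds there. ERSE was found in Hspa5, Hsp90b1, Calr, Canx, Dnajc3, Pdia6 and Creld2 among the chaperones and folding enzymes, and in Syvn1 and Derl3 among the degradation genes. The sequences below are a selection, shown because the genes are described in a comparison or carry the motifs of their role. They are written along the gene's strand with 15 bases on either side of a match, and capitals mark the matched motif, which reads as its reverse complement where it lies on the other strand. Of those shown, Hspa5, Hsp90b1, Calr, Canx and Pdia6 carry ERSE, with a second copy in Hsp90b1, Dnajb11 carries ERSE-II, Herpud1 carries CARE and ERSE-II, and Asns, Chac1 and Trib3 carry CARE.
Hspa5, chr2:34772010-34772058, plus strand: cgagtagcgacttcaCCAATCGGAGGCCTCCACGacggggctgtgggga
Hsp90b1, chr10:86705518-86705671, minus strand: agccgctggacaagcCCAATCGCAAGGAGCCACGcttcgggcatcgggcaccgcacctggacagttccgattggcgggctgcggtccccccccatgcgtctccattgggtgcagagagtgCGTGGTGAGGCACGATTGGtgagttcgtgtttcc
Calr, chr8:84847060-84847108, minus strand: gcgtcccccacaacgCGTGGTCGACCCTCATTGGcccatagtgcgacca
Canx, chr11:50325785-50325833, minus strand: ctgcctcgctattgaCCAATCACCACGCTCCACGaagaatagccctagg
Pdia6, chr12:17266476-17266524, plus strand: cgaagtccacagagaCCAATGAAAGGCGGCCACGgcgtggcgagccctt
Dnajb11, chr16:22857837-22857877, plus strand: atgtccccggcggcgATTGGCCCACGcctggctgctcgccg
Herpud1, chr8:94386302-94386402, plus strand: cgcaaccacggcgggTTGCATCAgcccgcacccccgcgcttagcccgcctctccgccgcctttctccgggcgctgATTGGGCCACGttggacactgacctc
Asns, chr6:7693210-7693247, minus strand: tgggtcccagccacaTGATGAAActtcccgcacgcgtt
Chac1, chr2:119351034-119351071, plus strand: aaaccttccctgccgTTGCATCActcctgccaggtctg
Trib3, chr2:152344024-152344061, minus strand: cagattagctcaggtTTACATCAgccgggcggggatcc

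Values were FPKM, that is fragment numbers divided by transcript length and library size, so levels can be set beside each other between genes, and the depth of each library is unknown. Within each triplet of values below, libraries stand in the order of their numbers in the labels. In eWAT, ND 1 and HR 2 were unlike the rest. Spermatid genes (Tnp1, Tnp2, Prm1 and Prm2) summed to 11231 FPKM in HR 2 and 92413 FPKM in ND 1. The same sum was 1738 FPKM in HP 1, 2282 FPKM in ND 3 and at most 128 FPKM in the other 5 eWAT libraries. The ER chaperones known from testis, Calr3, Clgn and Pdilt, summed to 375 FPKM in HR 2, 394 FPKM in ND 1 and no more than 57.8 FPKM in the other eWAT libraries, and to between 4.63 and 9.68 FPKM in the liver libraries. Epididymis genes summed to 1275 FPKM in HP 2, 16787 FPKM in ND 1 and at most 11.3 FPKM in the other eWAT libraries. Comparisons in eWAT are therefore given over 9 libraries and over the 7 without ND 1 and HR 2, which keep HP 1, HP 2 and ND 3. The testis ER chaperones summed to 57.8 FPKM in ND 3, against 5.41 FPKM in ND 2, the other ND library kept. Of the tissue markers, Alb was listed at 0 in liver HP 3 while Ttr, another hepatocyte marker, was at 5188 FPKM there, and adipocyte markers were present in all eWAT libraries. Skeletal muscle markers summed to 98.9 FPKM in liver HP 2 and 19.9 FPKM in liver HP 3, and to no more than 1 FPKM in the other liver libraries.

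In liver the abundant members were folding enzymes and chaperones, and the amino acid genes of the ATF4 branch were close to 0. P4hb, the disulfide isomerase subunit of prolyl 4-hydroxylase, had the highest median over the 9 liver libraries at 374 FPKM (range 348 to 480). Calr, the lectin chaperone calreticulin, followed at 281 FPKM (176 to 411), Herpud1, a partner of the degradation complex, at 254 FPKM (108 to 366), and Hspa5 (ENSMUSG00000026864) at 239 FPKM (157 to 406). The ranges of these neighbours in the order overlap. At the low end, the serine synthesis genes Psat1 and Phgdh stayed at or below 0.395 FPKM and 0.219 FPKM in every liver library, and the asparagine synthetase Asns (ENSMUSG00000029752) at or below 1.03 FPKM. In the 7 eWAT libraries Hspa5 led with a median of 236 FPKM (126 to 319), before Calr at 229 FPKM (134 to 344), P4hb at 217 FPKM (153 to 243) and Phgdh at 161 FPKM (98.3 to 242), again with overlapping ranges. Derl3, a Derlin of secretory cells, had the lowest median in eWAT at 1.20 FPKM (0.93 to 3.08).

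Set against liver over all 18 libraries, eWAT had more mRNA of the ATF4-branch amino acid genes and less of several ER genes that liver expresses strongly. The log2(FPKM + 1) difference, eWAT minus liver, was 6.85 (SE 0.27, adjusted p = 1.41e-11) for Phgdh, the first enzyme of serine synthesis, by limma with Benjamini-Hochberg adjustment over all genes tested, as for every adjusted p below. It was 5.56 (SE 0.32, adjusted p = 1.32e-09) for Psat1, 4.32 (SE 0.19, adjusted p = 6.67e-11) for Asns, 2.53 (SE 0.25, adjusted p = 4.89e-07) for the stress-induced sestrin Sesn2, and 1.97 (SE 0.25, adjusted p = 5.84e-06) for Chac1, which degrades glutathione. Lower in eWAT were Herpud1 at -1.70 (SE 0.25, adjusted p = 3.01e-05), P4hb at -1.22 (SE 0.20, adjusted p = 8.30e-05), the ubiquitin ligase of ER-associated degradation Syvn1 at -0.75 (SE 0.13, adjusted p = 0.000112), and the disulfide isomerase Pdia4 at -0.50 (SE 0.14, adjusted p = 0.00409). These 9 genes passed the threshold in the same direction under every scaling tried. Of them, Phgdh, Psat1, Asns and Chac1 did not reach 1 FPKM in 3 liver libraries. They were tested because the filter here accepted genes reaching it in either tissue, so the direction of their calls was largely set by the filter. In all, 13 members were higher and 4 lower in eWAT, where 77.7% of the 14963 genes tested were called (64.3% higher and 13.4% lower). The median of all genes was itself shifted by 0.95 toward eWAT, and the other 8 called members (Canx, Sdf2l1, Pdia6, Sel1l, Derl1, Eif2ak3, Ppp1r15a and Ddit3) lost the call under median-of-ratios rescaling, with the signs of Canx, Pdia6, Sel1l, Derl1, Eif2ak3 and Ppp1r15a turned round. That rescaling brought the median of all genes to 0.22 and the members to 5 higher and 17 lower, against 66.4% of the 14522 genes then tested (36.9% higher and 29.5% lower).

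In liver, resistant mice had more chaperone mRNA than mice on the normal diet. Of the 31 members tested (Asns, Chac1, Psat1 and Phgdh did not reach 1 FPKM in 3 libraries), 9 were higher and 0 lower in HR than in ND, where 3.24% of the 10633 genes tested were called (2.28% higher and 0.969% lower). At an unadjusted p under 0.05 there were 15 members, beside 2107 of the 10633 genes tested. All 15 chaperones and folding enzymes were positive, 7 of them called, with a median log2 difference of 0.72 against 0.01 over all genes tested. The count rested on few libraries: it was 2 without HR 1, 2 without HR 2, 4 without HR 3 and 4 without ND 1.

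Manf (ENSMUSG00000032575), a secreted and ER-resident protein induced by ER stress, was called under every setting and with every library left out. It had 81.2, 111 and 91.8 FPKM in HR livers, against 36.2, 28.8 and 35.03 FPKM in ND livers, a log2 difference of 1.48 (SE 0.18, adjusted p = 0.00296). The HR and ND values do not overlap. Sdf2l1 (ENSMUSG00000022769), a BiP cofactor in the ER, had 10.0, 13.2 and 10.0 FPKM in HR livers and 4.70, 2.28 and 3.10 FPKM in ND livers, with a difference of 1.497 (SE 0.31, adjusted p = 0.0306). Every HR library was above every ND library, and the call held under 4 of 6 other settings and in 4 of the 9 fits that left out a library. Calr had 411, 358 and 316 FPKM in HR livers and 214, 176 and 202 FPKM in ND livers, a difference of 0.87 (SE 0.15, adjusted p = 0.0119). Dnajb11, an Hsp40 partner of BiP, had 44.7, 49.7 and 44.7 FPKM in HR livers and 30.9, 27.2 and 25.6 FPKM in ND livers, with 0.72 (SE 0.13, adjusted p = 0.0174). The ND libraries again lay below all HR libraries for both genes. Both calls held under all 6 other settings. Of the 9 fits that left out a library, they held in 8 for Calr and in 5 for Dnajb11. Hspa5 itself had 263, 406 and 304 FPKM in HR livers and 239, 157 and 207 FPKM in ND livers, and its difference of 0.69 (SE 0.20, adjusted p = 0.0996) missed the threshold although the groups do not overlap. Its lowest HR value, in HR 1, was close to the highest ND value, in ND 1. The 22 members not called lay between -0.21 for Ern1 and 1.08 for Creld2, a disulfide isomerase-like stress gene whose adjusted p was 0.0555.

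Of the 4 disulfide isomerases, 3 were called and higher in HR livers. Pdia3, which works with calreticulin and calnexin, had 177, 180.2 and 141 FPKM in HR livers and 106, 83.2 and 105 FPKM in ND livers, a difference of 0.76 (SE 0.15, adjusted p = 0.0217). Pdia4, a BiP-associated isomerase, had 81.2, 103 and 81.7 FPKM in HR livers and 54.5, 47.3 and 56.3 FPKM in ND livers, with 0.73 (SE 0.15, adjusted p = 0.0306). Pdia6, which also acts with BiP, had 93.2, 102 and 89.1 FPKM in HR livers and 64.8, 50.03 and 67.3 FPKM in ND livers, with 0.64 (SE 0.14, adjusted p = 0.0371). Groups do not overlap for these 3 genes, while the call for Pdia6 held under 1 of 6 other settings and that for Pdia4 under 3 of 6. The Pdia3 call held under all 6. Of the 9 fits that left out a library, the calls held in 6 for Pdia3, 3 for Pdia4 and 3 for Pdia6. The most abundant isomerase, P4hb, was not called at 0.22 (SE 0.11, adjusted p = 0.301).

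Xbp1 (ENSMUSG00000020484), the transcription factor downstream of IRE1, rose with the chaperones in HR livers. It had 148, 178 and 128 FPKM in HR livers and 92.4, 80.7 and 90.9 FPKM in ND livers, a difference of 0.76 (SE 0.14, adjusted p = 0.0165). The Xbp1 call held under all 6 other settings and in 6 of the 9 fits that left out a library. FPKM per gene cannot tell spliced from unspliced Xbp1 mRNA. Of the ATF4 branch, Trib3, a pseudokinase, was called at 0.66 (SE 0.12, adjusted p = 0.0195), with 8.50, 7.82 and 7.54 FPKM in HR livers and 3.98, 4.90 and 5.22 FPKM in ND livers. The Trib3 call held under 5 of 6 other settings and in 5 of the 9 fits that left out a library. Ddit3 (ENSMUSG00000025408), which encodes the factor CHOP, had 7.14, 7.27 and 7.50 FPKM in HR livers and 6.32, 7.80 and 6.28 FPKM in ND livers, overlapping values with a difference of 0.10 (SE 0.12, adjusted p = 0.703). Atf4 had 47.3, 43.1 and 45.2 FPKM in HR livers and 44.6, 46.0 and 29.7 FPKM in ND livers, with 0.19 (SE 0.16, adjusted p = 0.537). Neither of these last 2 genes passed the threshold.

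**Figure D1:**
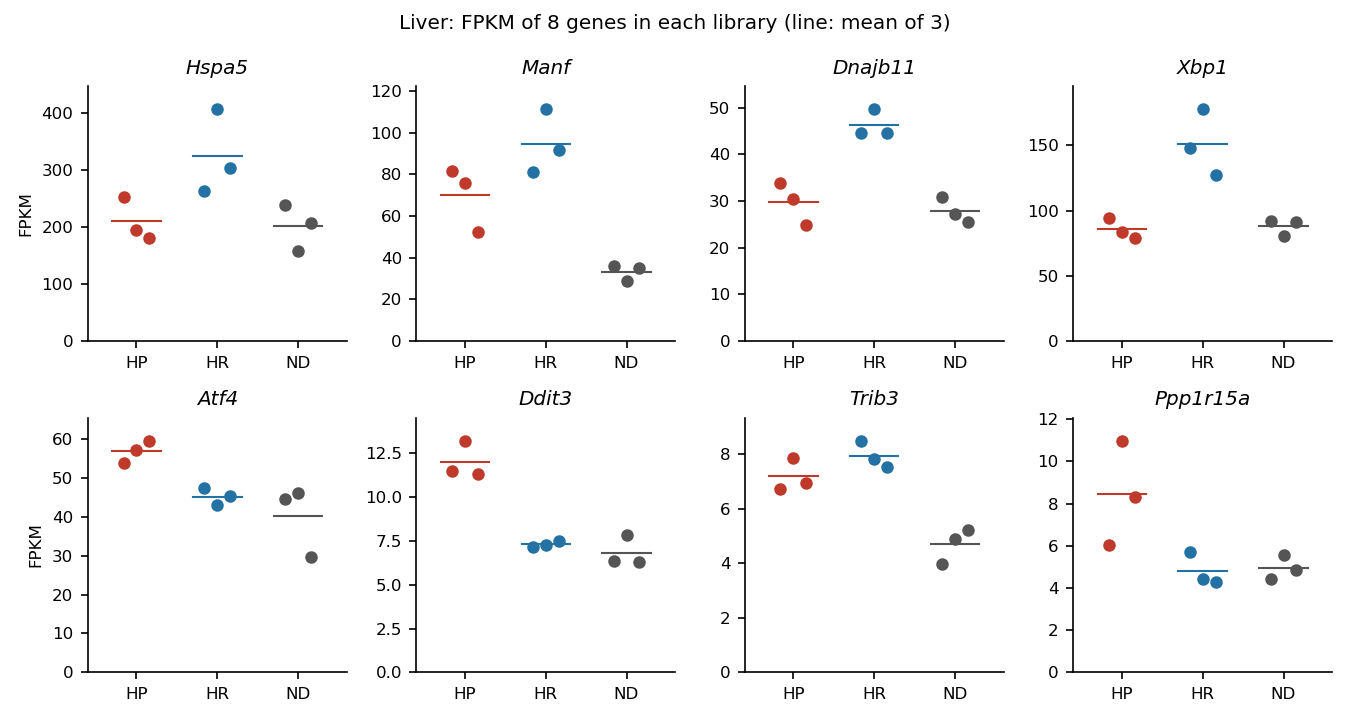
Liver FPKM of 8 members on linear axes from 0, with a point for each library and a line at the mean of 3, for HP, HR and ND. Manf lies between 81.2 and 111 FPKM in the 3 HR libraries and between 28.8 and 36.2 FPKM in the 3 ND libraries.

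In prone livers the members called against the normal diet included Ddit3, Trib3 and Atf4 beside some of the chaperones. There were 8 members higher and 2 lower in HP than in ND, 10 of the 31 tested, against a background of 31.7% of all genes called (17.6% higher and 14.1% lower), so the share of members called was close to that of all genes. Chaperones and folding enzymes were mixed, with 3 higher and 1 lower of 15 and a median difference of 0.092, and -0.031 after quantile normalization, against -0.02 over all genes. Of the 3 tested ATF4-branch genes 2 were higher. The member count was 4 without HP 2 and 6 without ND 3. The 21 members not called lay between -0.67 for Hsp90b1, the ER Hsp90 GRP94, and 0.56 for Herpud1.

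Ddit3 had 11.5, 13.2 and 11.3 FPKM in HP livers and 6.32, 7.80 and 6.28 FPKM in ND livers, a difference of 0.74 (SE 0.12, adjusted p = 0.00203). Trib3 had 6.74, 7.89 and 6.96 FPKM in HP livers and 3.98, 4.90 and 5.22 FPKM in ND livers, with 0.53 (SE 0.12, adjusted p = 0.0103). For both, each HP library was above each ND library. Atf4 had 53.9, 57.3 and 59.5 FPKM in HP livers and 44.6, 46.0 and 29.7 FPKM in ND livers, a difference of 0.52 (SE 0.16, adjusted p = 0.0278). Ppp1r15a, which encodes GADD34, the phosphatase subunit that reverses eIF2 alpha phosphorylation, had 6.03, 11.0 and 8.31 FPKM in HP livers and 4.41, 5.54 and 4.87 FPKM in ND livers, with 0.64 (SE 0.19, adjusted p = 0.0248). The Atf4 and Ppp1r15a groups do not overlap either, although HP 1 was close to ND 2 in Ppp1r15a. Of the 6 other settings the Atf4 call held under 4 and the Ppp1r15a call under 5. Of the 9 fits that left out a library, they held in 6 and in 5. Chac1 was too low to be tested, at 0.800, 1.02 and 2.24 FPKM in HP livers and 0.603, 0.240 and 0.404 FPKM in ND livers. Asns was likewise untested, at 0.451, 0.178 and 0.252 FPKM in HP livers, 0.833, 0.904 and 0.363 FPKM in HR livers and 0.966, 1.03 and 0.933 FPKM in ND livers. These low values point in opposite directions for the 2 genes.

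Among the chaperones, Manf, Sdf2l1 and Calr were higher in HP than in ND livers too. Manf had 81.6, 76.0 and 52.6 FPKM in HP livers, a difference of 1.03 (SE 0.18, adjusted p = 0.00284), Sdf2l1 had 11.3, 10.2 and 3.99 FPKM, with 1.06 (SE 0.31, adjusted p = 0.0264), and Calr had 281, 334 and 253 FPKM, with 0.55 (SE 0.15, adjusted p = 0.0181). HP 3 was the lowest of the 3 HP libraries for each of them, and in Sdf2l1 it fell within the ND values. Hspa5 had 252, 195 and 181 FPKM in HP livers, which overlap the ND values, with 0.066 (SE 0.20, adjusted p = 0.827). Sec61b, a subunit of the translocation channel, had 74.0, 89.8 and 71.7 FPKM in HP livers and 45.9, 46.8 and 36.4 FPKM in ND livers, with 0.85 (SE 0.14, adjusted p = 0.00240). Lower in HP were Dnajc3, an Hsp40 cochaperone that also inhibits eIF2 alpha kinases, and the sensor Ern1. Dnajc3 had 26.4, 17.4 and 19.6 FPKM in HP livers and 37.7, 26.6 and 33.2 FPKM in ND livers, with -0.60 (SE 0.17, adjusted p = 0.0240), and Ern1 had 4.56, 4.21 and 6.38 FPKM in HP livers and 9.57, 5.75 and 10.0 FPKM in ND livers, with -0.63 (SE 0.20, adjusted p = 0.0328). The Dnajc3 groups are adjacent and the Ern1 groups overlap, HP 3 being above ND 2.

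Differences in HP livers ran with transcript length. Over all genes, Spearman's rho between the log2 difference and transcript length was -0.446 for HP against ND, -0.278 for HR against ND and -0.364 for HP against HR. Once these trends with length and GC content had been removed library by library, 4 members were called in HP against ND, all higher, against 25.4% of all genes (13% higher and 12.4% lower): Manf at 0.70 (SE 0.19, adjusted p = 0.0217), Ppp1r15a at 0.60 (SE 0.17, adjusted p = 0.0264), Atf4 at 0.44 (SE 0.14, adjusted p = 0.0448) and Ddit3 at 0.35 (SE 0.092, adjusted p = 0.0197). Sec61b, Trib3, Sdf2l1, Calr, Dnajc3 and Ern1 were no longer called, and the Ddit3 difference was 0.35 in place of 0.74. The 5 adipocyte markers summed to 116 to 159 FPKM in HP livers against 43.0 to 71.0 FPKM in ND livers. Of the 3 that were tested, 2 were called and higher, and the sum rested on Cidec, at 71.8 to 115 FPKM in HP livers against 28.8 to 55.0 FPKM in ND livers, and Fabp4, at 30.2 to 36.7 FPKM against 6.53 to 9.89 FPKM. The defining markers Adipoq and Plin1 were at no more than 1.40 FPKM, with Adipoq at 0 in HP 2 and in all ND livers. The part of these markers in the members' differences was not tested.

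Between the high-fat groups, prone livers had less mRNA of 4 chaperones and folding enzymes and of Xbp1 than resistant livers, and more Ddit3 and Ppp1r15a. There were 2 members higher and 5 lower in HP than in HR, against 11.1% of all genes called (7.20% higher and 3.94% lower). All 15 chaperones and folding enzymes were negative, 4 of them called, with a median of -0.53 against -0.03 over all genes. Xbp1 had 94.2, 83.9 and 78.6 FPKM in HP livers and 148, 178 and 128 FPKM in HR livers, a difference of -0.81 (SE 0.14, adjusted p = 0.00843), called under every setting and with every library left out. Dnajb11 had 33.9, 30.5 and 25.0 FPKM in HP livers and 44.7, 49.7 and 44.7 FPKM in HR livers, with -0.63 (SE 0.13, adjusted p = 0.0175), and Dnajc3 had 26.4, 17.4 and 19.6 FPKM in HP livers and 31.4, 40.0 and 37.4 FPKM in HR livers, with -0.77 (SE 0.17, adjusted p = 0.0221). No HP value of these 3 genes reached the lowest HR value.

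Pdia6 had 73.0, 64.0 and 56.6 FPKM in HP livers and 93.2, 102 and 89.1 FPKM in HR livers, a difference of -0.55 (SE 0.14, adjusted p = 0.0333). Canx, the membrane-bound lectin chaperone calnexin, had 97.5, 44.9 and 55.3 FPKM in HP livers and 103, 133 and 102 FPKM in HR livers, with -0.83 (SE 0.23, adjusted p = 0.0447), its HP 1 value being close to the HR values. Of the 6 other settings and the 9 fits that left out a library, the Canx call held under 3 and in 2, and the Pdia6 call under 4 and in 4. Turned the other way, Ddit3 had 11.5, 13.2 and 11.3 FPKM in HP livers and 7.14, 7.27 and 7.50 FPKM in HR livers, with 0.64 (SE 0.12, adjusted p = 0.0114). Ppp1r15a had 6.03, 11.0 and 8.31 FPKM in HP livers and 5.68, 4.41 and 4.29 FPKM in HR livers, with 0.68 (SE 0.19, adjusted p = 0.0401). In both genes every HP library was above every HR library, although the Ppp1r15a call held under 4 of 6 other settings and in 3 of the 9 fits that left out a library. Trib3 was not called at -0.13 (SE 0.12, adjusted p = 0.504), Atf4 not at 0.33 (SE 0.16, adjusted p = 0.179) and Hspa5 not at -0.62 (SE 0.20, adjusted p = 0.0708). The count of 7 members was 1 without HP 2, 2 without HP 3, 1 without HR 2 and 3 without HR 3. These 3 liver comparisons share libraries in pairs and are not independent of each other.

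**Figure D2:**
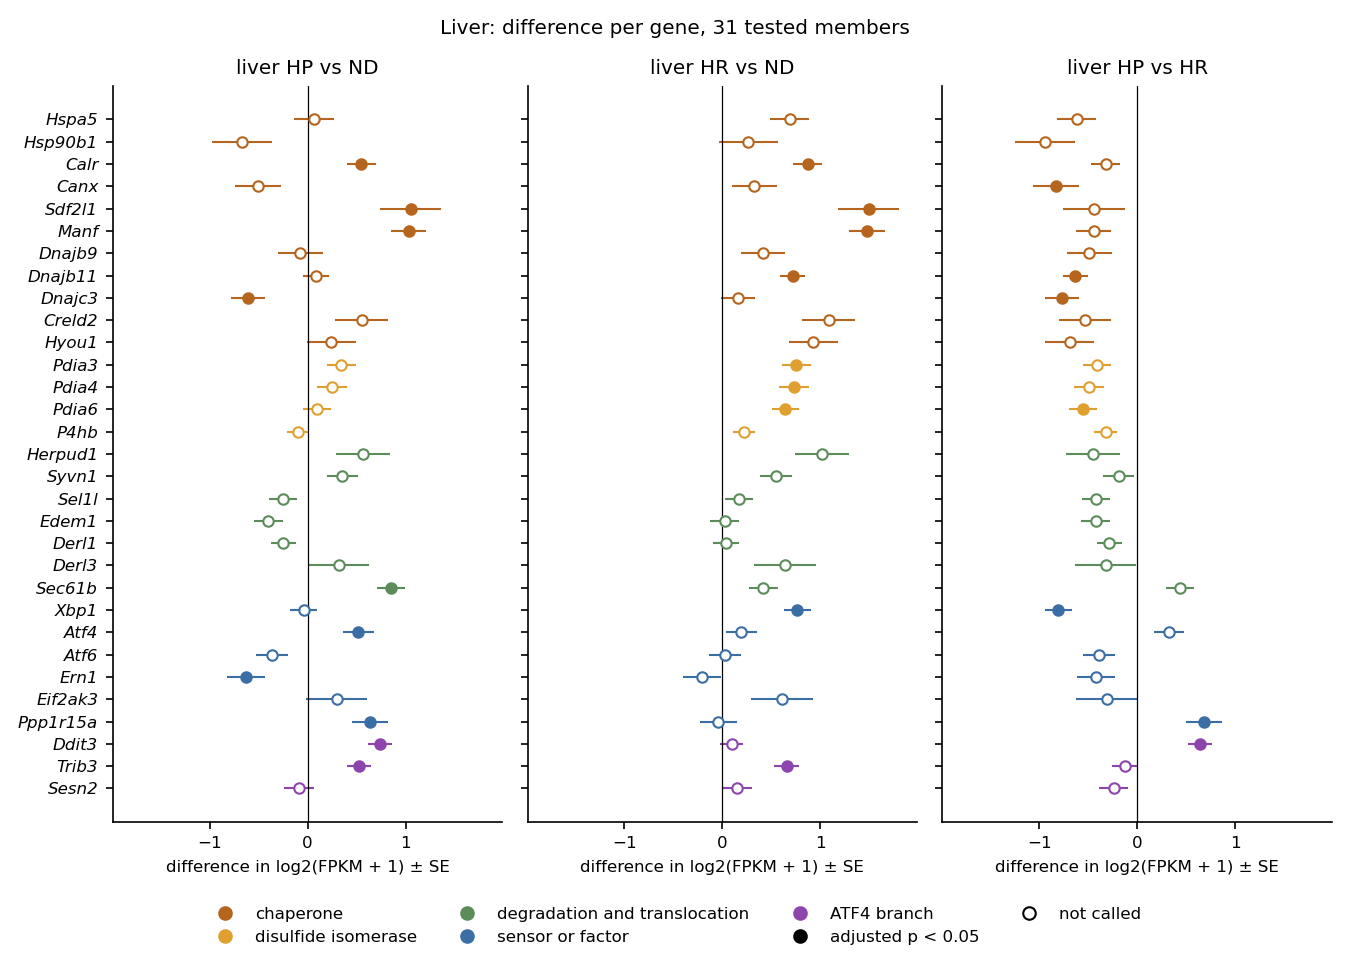
Log2(FPKM + 1) differences of the tested members in liver with standard errors, for HP against ND, HR against ND and HP against HR, grouped by role, filled where the adjusted p was under 0.05. All 15 chaperones and folding enzymes are positive in HR against ND and negative in HP against HR.

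In eWAT over all 9 libraries, limma called 0 of 35 members in any of the 3 comparisons, against 2.11% of the 14430 genes tested in HP against ND (2.07% higher and 0.0416% lower) and 0% in both HR against ND and HP against HR. At an unadjusted p under 0.05 there were 3 members in HP against ND, 0 in HR against ND and 1 in HP against HR, where 1642, 392 and 679 of all genes tested passed that level in these 3 comparisons. ND 1 lay far from the other ND libraries in several members. Calr was at 568 FPKM in ND 1, against 134 and 158 FPKM in the other ND libraries. Sdf2l1 was at 157 FPKM in ND 1, against 3.19 and 9.44 FPKM, and Ddit3 at 121 FPKM, against 14.0 and 14.3 FPKM. The sensors went the other way there, with Atf6 at 1.91 FPKM and Eif2ak3 at 1.46 FPKM in ND 1, the lowest of all eWAT libraries for both genes.

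Over the 7 eWAT libraries, prone mice had more chaperone mRNA than mice on the normal diet and less mRNA of 4 of the 7 ATF4-branch genes. In HP against ND, 11 members were higher and 5 lower, against 23.1% of the 13054 genes tested (15.7% higher and 7.40% lower). All 15 chaperones and folding enzymes were positive (13 after quantile normalization), 9 of them called, with a median difference of 0.53, while the ATF4 branch had 1 higher and 4 lower of 7 and a median of -0.83. The median of all genes tested was 0.01. The count of 16 members was 10 without HP 1, 10 without HP 2 and 8 without HP 3, and the fit has only 2 ND libraries. Where ND 2, ND 3, HR 1 or HR 3 is left out of it, a group has 1 library, which is assumed to vary like the other groups. Spermatid genes summed to 2282 FPKM in ND 3 and 128 FPKM in ND 2, and the part of testis RNA in these differences was not tested.

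Sdf2l1 had 30.7, 26.4 and 29.3 FPKM in HP fat, against 3.19 and 9.44 FPKM in ND 2 and ND 3, a difference of 2.17 (SE 0.36, adjusted p = 0.00690). Calr had 344, 316 and 321 FPKM in HP fat and 134 and 158 FPKM in ND 2 and ND 3, with 1.16 (SE 0.12, adjusted p = 0.00111). Hspa5 had 319, 298 and 288 FPKM in HP fat and 126 and 189 FPKM in ND 2 and ND 3, with 0.96 (SE 0.18, adjusted p = 0.0110). The HP libraries lie close together in these genes and above both ND libraries. Dnajb11 had 49.2, 42.4 and 46.1 FPKM in HP fat and 23.1 and 25.7 FPKM in ND 2 and ND 3, with 0.88 (SE 0.12, adjusted p = 0.00283). For Pdia3 the values were 192, 171 and 170.0 FPKM in HP fat and 100.2 and 93.5 FPKM in ND 2 and ND 3, with 0.87 (SE 0.11, adjusted p = 0.00224). Canx had 141, 167 and 177 FPKM in HP fat and 87.0 and 98.9 FPKM in ND 2 and ND 3, with 0.79 (SE 0.13, adjusted p = 0.00749). These 6 genes were called under every setting and with each of the 7 libraries left out, under that assumption for ND 2 and ND 3. Sec61b had 73.1, 61.1 and 66.7 FPKM in HP fat and 41.8 and 36.8 FPKM in ND 2 and ND 3, with 0.75 (SE 0.19, adjusted p = 0.0315), and it was called under 3 of 6 other settings. Hsp90b1, Pdia6 and P4hb were higher by 0.47 to 0.53 on the log2 scale, with adjusted p values of 0.0207, 0.0181 and 0.0273. For each of these 3 genes the call was lost under quantile normalization and without any 1 of the HP libraries. Of the 6 other settings, the calls held under 3 for Hsp90b1, 4 for Pdia6 and 2 for P4hb.

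The ATF4 branch did not move as 1 group in HP fat. Asns had 18.6, 15.4 and 14.5 FPKM in HP fat, against 46.1 and 52.4 FPKM in ND 2 and ND 3, a difference of -1.55 (SE 0.15, adjusted p = 0.000852). Sesn2 had 18.7, 15.8 and 17.7 FPKM in HP fat and 43.4 and 60.6 FPKM in ND 2 and ND 3, with -1.51 (SE 0.21, adjusted p = 0.00320). Both were below the ND values in every HP library and were called under every setting and with any 1 of the HP libraries left out. Without ND 2 or ND 3 only 1 ND library remains, and the spread then comes from the other groups. Trib3 had 4.69, 4.06 and 4.59 FPKM in HP fat and 9.66 and 7.92 FPKM in ND 2 and ND 3, with -0.84 (SE 0.21, adjusted p = 0.0295), and Phgdh had 126, 111 and 98.3 FPKM in HP fat and 242 and 161 FPKM in ND 2 and ND 3, with -0.83 (SE 0.20, adjusted p = 0.0251). These groups do not overlap either, and each of the 2 calls was lost under 2 of 6 other settings. Psat1, the next enzyme of serine synthesis, had 96.8, 93.3 and 78.1 FPKM in HP fat and 74.6 and 48.2 FPKM in ND 2 and ND 3, and was not called at 0.56 (SE 0.21, adjusted p = 0.101). Ddit3 was the 1 ATF4-branch gene that was higher, with 24.9, 20.0 and 23.1 FPKM in HP fat, 14.0 and 14.3 FPKM in ND 2 and ND 3 and a difference of 0.64 (SE 0.14, adjusted p = 0.0175). Chac1 had 5.62, 6.21 and 7.78 FPKM in HP fat and 7.52 and 10.3 FPKM in ND 2 and ND 3, overlapping values with -0.39 (SE 0.25, adjusted p = 0.318).

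Atf4 mRNA had 82.1, 79.2 and 78.5 FPKM in HP fat and 65.4 and 63.7 FPKM in ND 2 and ND 3, and its difference of 0.30 (SE 0.12, adjusted p = 0.119) was not called. Xbp1 had 108, 105 and 89.1 FPKM in HP fat and 117 and 109.7 FPKM in ND 2 and ND 3, with -0.17 (SE 0.14, adjusted p = 0.414). None of the 6 sensors and factors was called by limma, and 3 of them had an unadjusted p under 0.05, beside 4681 of the 13054 genes tested. Derl1, a channel component of ER-associated degradation, was lower, with 73.0, 70.2 and 76.2 FPKM in HP fat, 115 and 103 FPKM in ND 2 and ND 3 and a difference of -0.57 (SE 0.11, adjusted p = 0.0136).

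Macrophage markers were also higher in HP fat. The macrophage genes Adgre1, Cd68, Lyz2, Csf1r and Itgam were all called in HP against ND over 7 libraries and summed to 3683, 2725 and 3825 FPKM in the HP libraries, 1302 and 1606 FPKM in HR 1 and HR 3, and 519 and 400.4 FPKM in ND 2 and ND 3. Plasma cell and B cell genes summed to 282 to 304 FPKM in the HP libraries, 232 and 369.9 FPKM in HR 1 and HR 3, and 179 and 101 FPKM in ND 2 and ND 3, with Ms4a1 at 0 in all of them and Mzb1 at no more than 0.73 FPKM. Ighm carried this sum, at 275 to 296 FPKM in the HP libraries, 223 and 359 FPKM in HR 1 and HR 3, and 170 and 92.7 FPKM in ND 2 and ND 3, while Jchain was at 4.06 to 4.35 FPKM in the HP libraries against 5.38 and 5.37 FPKM in ND 2 and ND 3. Adipocyte genes summed to 17975, 16791 and 15350.3 FPKM in the HP libraries, 23382 and 19794 FPKM in HR 1 and HR 3, and 30287 and 19365 FPKM in ND 2 and ND 3. In whole tissue, fewer cells of a type and less RNA per cell cannot be told apart, and the part of these markers in the members' differences was not tested.

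**Figure D3:**
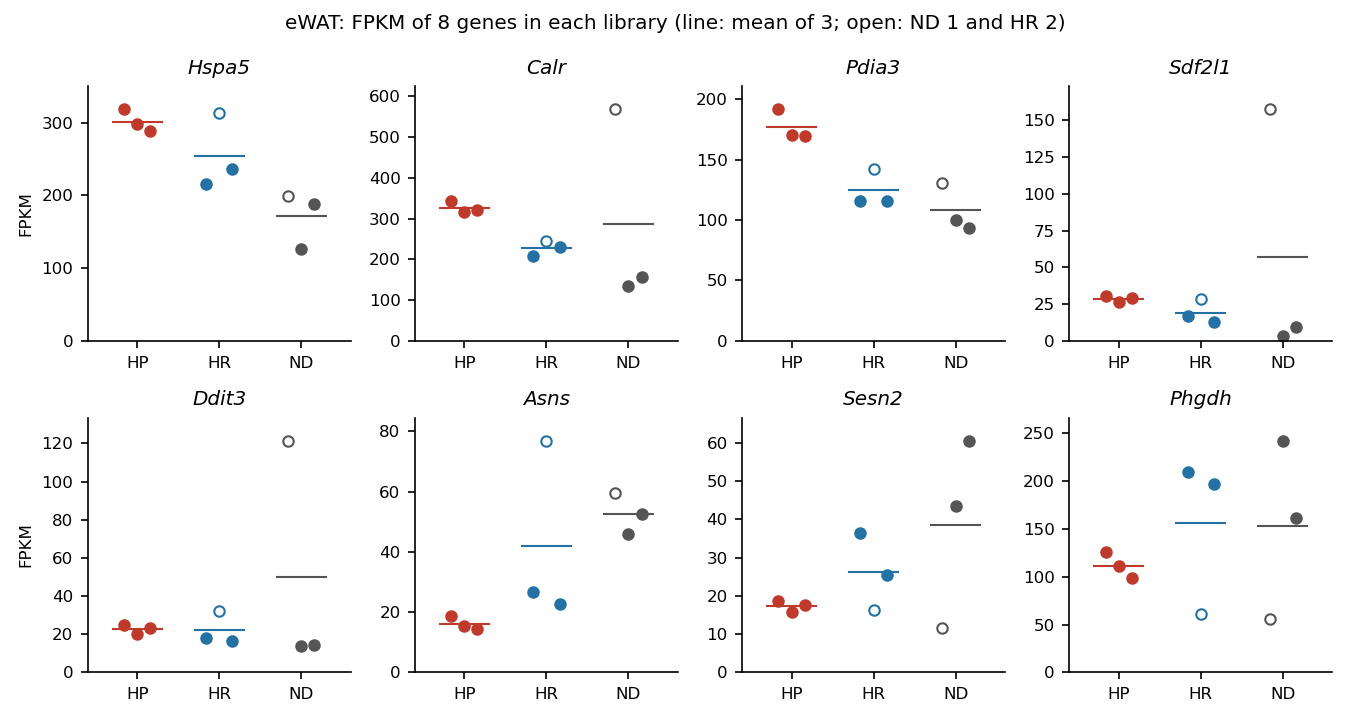
FPKM of 8 members in eWAT on linear axes from 0, with a point for each library and a line at the mean of 3, for HP, HR and ND, open points being ND 1 and HR 2. Asns lies between 14.5 and 18.6 FPKM in the HP libraries, against 46.1 and 52.4 FPKM in ND 2 and ND 3.

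In HR against ND over 7 libraries, 1 member was called, against 4.14% of all genes (3.85% higher and 0.291% lower): Asns, with 26.8 and 22.5 FPKM in HR 1 and HR 3, 46.1 and 52.4 FPKM in ND 2 and ND 3, and a difference of -0.97 (SE 0.17, adjusted p = 0.0283). The count was 2 without ND 2 and 6 without ND 3, and 0 without HP 2, HP 3, HR 1 or HR 3. By limma 0 of the 15 chaperones and folding enzymes were called, with 6 at an unadjusted p under 0.05 and a median of 0.27. Of the 13054 genes tested, 2357 were under that level, and the median of all was 0.02. Hspa5 had 215 and 236 FPKM in HR 1 and HR 3 and 126 and 189 FPKM in ND 2 and ND 3, with 0.55 (SE 0.20, adjusted p = 0.216), and Sdf2l1 had 16.6 and 12.8 FPKM and 3.19 and 9.44 FPKM in the same libraries, with 1.24 (SE 0.39, adjusted p = 0.164). Trib3 had 10.2 and 6.62 FPKM in HR 1 and HR 3 and 9.66 and 7.92 FPKM in ND 2 and ND 3, with -0.076 (SE 0.23, adjusted p = 0.898).

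In HP against HR over 7 libraries, 4 members were higher and 0 lower, against 6.46% of all genes (4.21% higher and 2.25% lower), and all 4 were chaperones or folding enzymes. Calr had 344, 316 and 321 FPKM in HP fat and 208 and 229 FPKM in HR 1 and HR 3, a difference of 0.58 (SE 0.12, adjusted p = 0.0445). Canx had 141, 167 and 177 FPKM in HP fat and 103 and 107 FPKM in HR 1 and HR 3, with 0.61 (SE 0.13, adjusted p = 0.0482), and Pdia3 had 192, 171 and 170.0 FPKM in HP fat and 116 and 116 FPKM in HR 1 and HR 3, with 0.61 (SE 0.11, adjusted p = 0.0294). Hsp90b1 had 112, 118 and 111 FPKM in HP fat and 76.9 and 86.6 FPKM in HR 1 and HR 3, with 0.47 (SE 0.11, adjusted p = 0.0492). The groups do not overlap for these 4 genes, but of 6 other settings the calls held under 0 for Hsp90b1 and Canx, 1 for Calr and 2 for Pdia3. The count of members called was 2 with a pseudocount of 0.1, 1 without a filter, and 0 after median-of-ratios rescaling. It was also 0 without any 1 of the HP libraries, HR 1 or HR 3, 9 without ND 2 and 11 without ND 3. The ATF4 branch had 0 of 7 called by limma, with 5 at an unadjusted p under 0.05 and a median of -0.58. Of the 13054 genes tested, 3067 were under that level, and the median of all was 0.04. Sesn2 was at 18.7, 15.8 and 17.7 FPKM in HP fat and 36.5 and 25.5 FPKM in HR 1 and HR 3, with -0.78 (SE 0.21, adjusted p = 0.0773).

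Chaperones and the ATF4 branch were also set side by side in each library. As the median over genes of the log2 level relative to the ND mean, the 15 chaperones and folding enzymes stood at 0.38, 0.13 and -0.10 in HP livers and 0.62, 0.86 and 0.62 in HR livers, against 0.12, -0.21 and 0.077 in ND livers. The 3 tested ATF4-branch genes stood at 0.45, 0.65 and 0.49 in HP livers and 0.27, 0.14 and 0.13 in HR livers, against -0.19, 0.056 and 0.13 in ND livers. The 3 HR livers thus had the highest chaperone medians and the 3 HP livers the highest ATF4-branch medians. The ATF4-branch order rests on 3 genes and did not hold for each of them. In HP against HR, Ddit3 was higher at 0.64 while the other 2 were negative, with a median difference of -0.13. In eWAT, relative to the mean of ND 2 and ND 3, chaperones and folding enzymes stood at 0.60, 0.55 and 0.51 in HP fat and 0.29 and 0.26 in HR 1 and HR 3, against -0.11 and 0.11 in ND 2 and ND 3. The 7 ATF4-branch genes stood at -0.65, -0.83 and -0.80 in HP fat and 0.21 and -0.36 in HR 1 and HR 3, against -0.015 and 0.015 in ND 2 and ND 3. Of these 7 fat libraries, the 3 HP libraries had the highest chaperone medians and the lowest ATF4-branch medians. The ATF4-branch order describes the 7 listed genes only. Of 20 other ATF4 targets in HP against ND over the same libraries, 15 were positive and 5 negative, with a median of 0.29. Of these 20, 6 were called higher and 2 lower, beside 15.7% and 7.40% of all genes. Ddit3 is counted in the branch although it was higher in HP in both tissues.

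**Figure D4:**
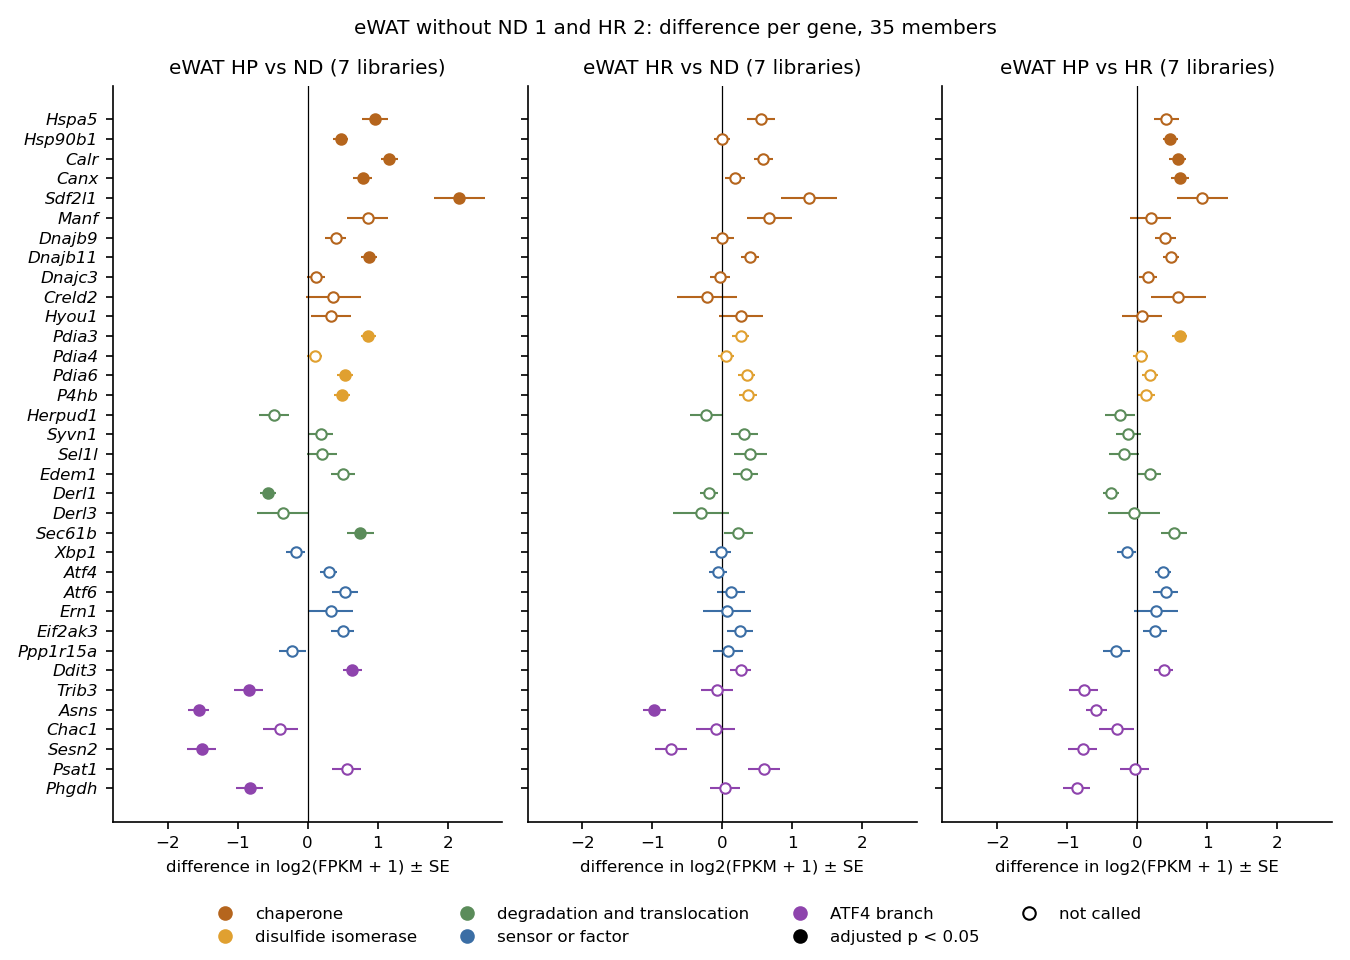
Log2(FPKM + 1) differences of the 35 members in eWAT over 7 libraries with standard errors, for HP against ND, HR against ND and HP against HR, grouped by role, filled where the adjusted p was under 0.05. In HP against ND all 15 chaperones and folding enzymes are positive (13 after quantile normalization), while Asns, Sesn2, Trib3 and Phgdh are at -0.83 or lower.

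Other genes of the pathway, from lists of known members, were followed in the same fits. In HP against ND livers, 7 of 42 other ER folding, glycosylation and translocation genes were higher and 8 lower, beside 17.6% and 14.1% of all genes, among them Fkbp2, an ER prolyl isomerase, at 1.08 and Dad1, an oligosaccharyltransferase subunit, at 0.67 on the log2 scale. Of 15 other ATF4 targets tested, 6 were higher and 3 lower, with Cebpb, a partner factor of ATF4, at 1.73, the stress protein gene Nupr1 at 1.15 and the cysteine synthesis gene Cth at -0.87. Of 20 tRNA synthetases 1 was higher and 2 lower, with Cars at 0.78 and Iars at -0.59. Other genes of ER-associated degradation gave 2 higher and 3 lower of 20, with Selenok at 1.098, and other sensors and ER membrane factors 1 higher and 2 lower of 13, with the stress kinase gene Map3k5 at -0.64. Against HR livers, beside 7.20% of all genes higher and 3.94% lower, HP livers had 4 of 15 other ATF4 targets higher and 0 lower, Cebpb at 1.19, Nupr1 at 1.08, Ddit4 at 0.89 and Eif4ebp1 at 0.62. These 4 went the same way as Ddit3 and Ppp1r15a, while Trib3 and Sesn2 of the ATF4 branch were negative and not called. Of the 15 other targets, 10 were positive and 5 negative. Beside 2.28% of all genes higher and 0.969% lower, HR against ND livers had 1 of the 42 folding genes higher and 0 lower, the oligosaccharyltransferase subunit Ddost at 0.42, and 1 of 20 other degradation genes, Selenok at 0.88.

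In eWAT over 7 libraries, HP against ND had 11 of the 42 folding genes higher and 0 lower, beside 15.7% and 7.40% of all genes, led by the signal peptidase subunits Sec11c at 1.41 and Spcs3 at 0.89 and the oligosaccharyltransferase subunits Ostc at 0.94 and Rpn1 at 0.95. Of 20 other ATF4 targets, 6 were higher and 2 lower. Atf3, a stress factor, had 130.0, 115 and 151 FPKM in HP fat, 36.8 and 44.8 FPKM in HR 1 and HR 3, and 4.55 and 3.47 FPKM in ND 2 and ND 3, a difference of 4.73 (SE 0.17, adjusted p = 6.84e-05) for HP against ND. Mthfd2, of mitochondrial folate metabolism, was higher at 1.51, the proline synthesis gene Aldh18a1 at 1.28, and the secreted factor gene Stc2 lower at -0.70. Wfs1, an ER membrane protein gene whose loss causes Wolfram syndrome, had 62.0, 46.6 and 71.5 FPKM in HP fat, 24.7 and 26.6 FPKM in HR 1 and HR 3, and 6.54 and 8.20 FPKM in ND 2 and ND 3, with 2.85 (SE 0.20, adjusted p = 0.000224) for HP against ND. In both genes every HP library lay above every HR library, and both HR libraries above both ND libraries. Of the tRNA synthetases 3 of 20 were higher and 0 lower, and of the other degradation genes 1 of 20 was higher, Edem2 at 0.55.

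The response of the members to the high-fat diet in prone mice was compared between tissues as the HP minus ND difference in eWAT less that in liver. Over all 18 libraries limma called 0 of 35, with 9 at an unadjusted p under 0.05 (as were 2886 of the 14963 genes tested), against 5.01% of all genes (4.12% positive and 0.896% negative). Without eWAT ND 1 and HR 2, 14 were called, 8 positive and 6 negative, against 28.0% of all genes (16.8% positive and 11.2% negative), and the genes are given among the results for a closer look. The 6 negative ones include Asns, Chac1 and Phgdh, at 2.24 FPKM or less in every liver library, which entered through their eWAT values alone. Their interactions cannot show that they responded differently in the 2 tissues.

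**Figure D5:**
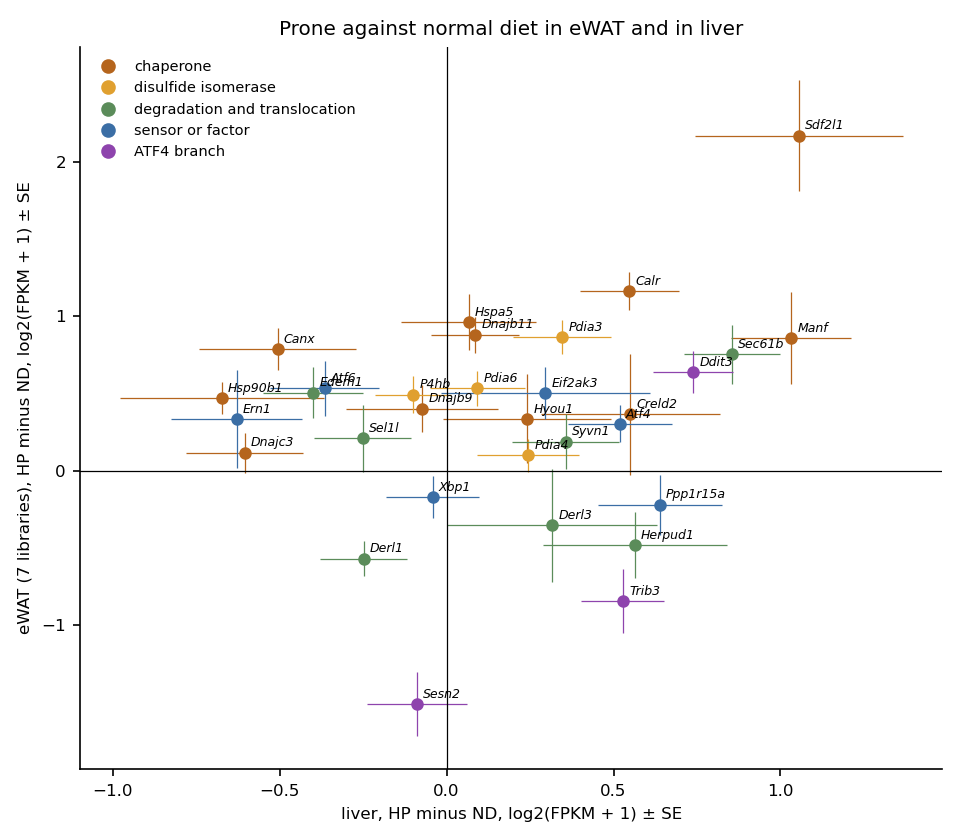
HP minus ND differences of the 31 genes tested in both tissues, on the log2(FPKM + 1) scale, with liver on the horizontal axis and eWAT over 7 libraries on the vertical axis. Points are genes coloured by role and bars are standard errors. Sdf2l1, Calr, Manf, Sec61b and Ddit3 lie to the upper right, and Trib3 lies at 0.53 in liver and -0.84 in eWAT.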

How the data were processed

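Messenger RNA libraries of eWAT and liver were analysed from 1 table of FPKM values deposited by the authors. The tools named in the submitters' processing notes were STAR 2.4.0, Cufflinks 2.1.1 and CASAVA 1.8.2, with roles, genome build, annotation and strandedness not given in the sources used here. Of 23474 identifiers, 22671 were named through GENCODE M21. FPKM carries no counts, so depth is unknown and no counting interval is given.

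Tests were made on log2(FPKM + 1) in limma 3.58.1 (R 4.3.3, variance trend on), two-sided, with Benjamini-Hochberg adjustment over all genes at 0.05, the 3 groups of a tissue in 1 fit. Genes were tested that reached 1 FPKM in 3 or more libraries of the tissue, or of either tissue in fits over both. The log2(FPKM + 1) scale understates changes of low genes. Alternatives were a pseudocount of 0.1, no filter, quantile normalization, median-of-ratios rescaling, a length and GC correction, the replicate block and leaving out each library. Scripts were tested on simulated data. Where over 10 members passed in 1 direction, values are given for the 8 with the largest difference. Hspa5, Sdf2l1, Xbp1, Atf4, Ddit3, Trib3, Asns and Chac1 are given in any case, and other lists by up to 4 genes with the smallest p, to which Psat1, Hsp90b1, P4hb and other members were added for their role. Promoters came from RefSeq on GRCm38.p6. Members, lists and tests were chosen with earlier results of these data known. A gene that the naming rule picked out is not reported here. Figures were drawn with matplotlib 3.10.9.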

Additional observations from a re-analysis of the deposited data

Results flagged for a closer look

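For 14 members the HP minus ND difference in eWAT differed from that in liver, by the interaction term of limma over the 16 libraries without eWAT ND 1 and HR 2. In the same fit 28.0% of the 13690 genes tested were called (16.8% positive and 11.2% negative). The interaction, eWAT less liver on the log2(FPKM + 1) scale, is what drew attention to each. It was positive for 8 members, the chaperones and folding enzymes Canx (1.29), Hspa5 (0.897), Dnajb11 (0.796), Dnajc3 (0.722), Calr (0.617) and P4hb (0.594), the mannosidase-like degradation factor Edem1 (0.906), and the sensor Atf6 (0.899). It was negative for 6, the ATF4-branch genes Sesn2 (-1.42), Trib3 (-1.37), Chac1 (-1.08), Asns (-0.937) and Phgdh (-0.867), and Ppp1r15a (-0.858). Adjusted p values, by limma with Benjamini-Hochberg adjustment, lay between 0.000445 for Trib3 and 0.0421 for Hspa5. Trib3 was higher in HP than ND in liver, at 0.53, and lower in eWAT over 7 libraries, at -0.84. Asns, Chac1 and Phgdh were at 2.24 FPKM or less in every liver library and entered this fit through their eWAT values alone. The log2(FPKM + 1) scale understates liver differences at such levels. For Asns the HP and ND means were 0.29 and 0.98 FPKM in liver, and 16.2 and 49.2 FPKM in eWAT without ND 1. The interactions of Asns, Chac1 and Phgdh therefore cannot show that these genes responded differently in the 2 tissues. Over all 18 libraries limma called none of the 35, with 9 of them and 2886 of the 14963 genes tested at an unadjusted p under 0.05, and ND then held 3 eWAT libraries with spermatid sums between 128 and 92413 FPKM. The part of testis RNA in this change of calls was not tested.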

How the results depend on the processing

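Counts of members called, which are 10 in liver HP against ND, 9 in HR against ND and 7 in HP against HR, depended on the processing. Without a filter on low values they were 6 in HP against ND and 3 in HP against HR, and the length and GC correction gave 4 in HP against ND. In eWAT over 7 libraries, HR against ND (1 called) gave 0 without a filter and 2 with the length and GC correction, and HP against HR (4 called) gave 2 with a pseudocount of 0.1, 1 without a filter, 0 with median-of-ratios rescaling and 1 with the length and GC correction. The tissue difference (0 called, against 5.01% of all genes) gave 14 without eWAT ND 1 and HR 2, against 28.0% of all genes. Those 14 include Asns, Chac1 and Phgdh, which entered through their eWAT values alone. Causes of these shifts were not tested.

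With the replicate block the counts were 10, 7 and 4 in liver for HP against ND, HR against ND and HP against HR, and 14, 0 and 0 for the same comparisons in eWAT over 7 libraries. Between the diet groups of a tissue, deviations of libraries with the same number correlated at -0.348 to 0.428 in liver and -0.843 to 0.625 in eWAT. Libraries of eWAT and liver were not set against each other in this way. Whether equal numbers mark the same mouse or batch is therefore unknown.

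Leaving out each library in turn gave 4 to 11 called in liver HP against ND, 2 to 10 in HR against ND and 1 to 9 in HP against HR. In eWAT over 9 libraries it gave 0 to 1, 0 and 0, and over 7 libraries 8 to 19, 0 to 6 and 0 to 11, some of these with 1 library in a group, assumed to vary like the others. It gave 14 to 23 for eWAT against liver and 0 to 3 for the tissue difference.

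For members given by name and past the threshold before or after a change of setting, directions turned round in eWAT against liver, and small differences that were not called also changed sign elsewhere. Atf4 passed only after the rescaling. In the tissue difference, Calr was called at 0.62 without eWAT ND 1 and HR 2, against -0.04 over 18 libraries. Median-of-ratios rescaling gave Canx -0.35, Pdia6 -0.28, Sel1l -0.29, Derl1 -0.29, Atf4 -0.63, Eif2ak3 -0.13 and Ppp1r15a -0.21. The length and GC correction gave Canx -0.024, Sel1l -0.37, Derl1 -0.24, Eif2ak3 -0.21 and Ppp1r15a -0.34, and quantile normalization gave Eif2ak3 -0.42 and Ppp1r15a -0.40. Small groups and unknown depth limit all of these values.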

Other observations

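In eWAT HR 2 and ND 1, which had the highest spermatid sums (HP 1 and ND 3 stood at 1738 and 2282 FPKM), several ER genes were outside the range of the other libraries. Creld2, a disulfide isomerase-like stress gene, was at 149 FPKM in eWAT HR 2 and 179 FPKM in ND 1, against 9.33 to 26.4 FPKM in the other 7 eWAT libraries. Derl3 was at 13.5 FPKM in HR 2 and 30.5 FPKM in ND 1, against 0.93 to 3.08 FPKM, and Manf at 149 FPKM in HR 2 and 211 FPKM in ND 1, against 27.0 to 80.8 FPKM. The 2 libraries differed from each other in Hsp90b1, at 113 FPKM in HR 2 and 28.0 FPKM in ND 1, and in Ddit3, at 32.4 FPKM in HR 2 and 121 FPKM in ND 1.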
